A study of Caenorhabditis elegans with 6 samples.

Results

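The sites described here are the 1817 PHA-4 peaks on chromosome V, of 12404 peaks in the list deposited for the series as a whole. They were chosen by chromosome alone, as every peak of that list that lies on V. A peak is a stretch of the genome in which the peak caller found more sequenced fragments than in the input. The lists of the single ChIP replicates held 757, 398 and 269 peaks on V for replicates 1, 2 and 3, of 5320, 2802 and 1900 in all.

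All samples came from strain OP37 of *Caenorhabditis elegans*, collected as L4 larvae after growth at 20 °C on E. coli HB101 and fixed with 2% formaldehyde. The strain carries the mutant allele unc-119(ed3) and the transgene wgIs37, in which a working unc-119 copy accompanies pha-4::TY1::EGFP::3xFLAG. The transgene was introduced by particle bombardment, so both groups contain it on top of the worm's own pha-4 gene. The 3 ChIP samples were enriched with an antibody against GFP, and the 3 input samples are total sonicated chromatin, whose values were not analysed here. ChIP from worms without the tag was not analysed here. The titles call the samples male and the sex label calls them hermaphrodite. The labels name no separate cultures, so the spread between replicates may be technical.

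PHA-4 is the worm's FoxA transcription factor, a forkhead protein that binds DNA in compacted chromatin and specifies the organ identity of the pharynx. In later larvae it is also present in the intestine and other digestive tract cells, and it is needed for lifespan extension under dietary restriction. Worm chromosomes have no single centromere. Their central parts recombine little and hold most conserved and broadly expressed genes, while the arms recombine often and hold more repeats and fast-evolving gene families. The arms of V in particular carry large families of chemoreceptor genes. The pha-4 gene itself is a gene of chromosome V.

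Read counts are in none of the lists, so depth is unknown and peak numbers could not be scaled for it. Each peak has 1 significance value from the authors' caller, and it is used below only to rank peaks within a list. Peaks of a chromosome are not independent replicates. Comparisons were therefore made over the 3 replicate lists, where an exact permutation test of signs cannot give a p below 0.25. The 95% intervals of shares are exact Clopper-Pearson intervals and cover counting error only.

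PHA-4 peaks were sparser on V than on the rest of the genome, and about equally so in every list. The replicate lists held 36.2, 19.04 and 12.9 peaks per Mb on V, against 57.5, 30.3 and 20.6 per Mb over the other 5 chromosomes. The ratio of V to the others was 0.629, 0.628 and 0.626 in replicates 1, 2 and 3, or 0.628 ± 0.0019 (SD, n = 3; exact permutation test, two-sided, p = 0.25, the smallest possible). Against the other 5 chromosomes together, the ratio thus stayed within a narrow range although the number of peaks on V differed widely between the lists. The range was wider under other settings. Without chromosome I the ratio was 0.605 ± 0.032, and in the better-ranked 50% of each list it was 0.628 ± 0.033 (SD, n = 3). In the series-level list V held 86.9 peaks per Mb against 133 elsewhere, a ratio of 0.651. The peaks on V were on the other hand somewhat wider. Their median width was 402, 450.5 and 499 bp in replicates 1, 2 and 3, against 370, 443.5 and 453 bp on the other chromosomes, a difference of 28.3 ± 19.8 bp (SD, n = 3; exact permutation test, two-sided, p = 0.25). The X chromosome had still wider peaks than V, with medians of 457, 493.5 and 529.5 bp. In replicate 2 the median of chromosome I was also above V, at 454 bp, and that of II was close to V, at 449.5 bp. In replicates 1 and 3 chromosome I was below V, at 344 and 472 bp. By bases covered, V stood at 1.93, 1.21 and 0.869% in the 3 replicates and the other chromosomes together at 2.60, 1.62 and 1.14%. Chromosome I alone stood at 2.57, 1.18 and 0.886%. It was thus above V in replicate 1, slightly below V in replicate 2 and close to V in replicate 3.

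Of the 1817 peaks on V, 832 overlapped a peak of at least 1 replicate by 1 bp or more (45.8%, 95% interval 43.5 to 48.1%). Over all chromosomes the share was 46.3%. At least 2 replicates overlapped 335 peaks (18.4%, interval 16.7 to 20.3%), again beside 18.4% over all chromosomes, and all 3 overlapped 145 (7.98%, interval 6.78 to 9.32%) beside 8.51%. These shares lay close to the background. They depend on which lists are counted: without replicate 1, at least 1 of the remaining replicates overlapped 25.2% and both overlapped 8.97%, and without replicate 2 both overlapped 10.8%. The 985 peaks with no overlap in any replicate made up 54.2% of the list on V. Replicate 1 overlapped 691 peaks, replicate 2 overlapped 373 and replicate 3 overlapped 248. Replicate 1 was the only support for 374 peaks, against 90 for replicate 2 and 33 for replicate 3.

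Between the replicates themselves, 76.6% of the V peaks of replicate 3 overlapped a peak of replicate 1 and 64.3% one of replicate 2. Of those of replicate 2, 68.8% overlapped replicate 1 and 43.0% replicate 3, and the longer list of replicate 1 was met by replicates 2 and 3 for 36.7% and 27.3% of its peaks. On the other chromosomes these shares were 76.0, 64.4, 68.6, 44.0, 35.9 and 27.2%, each inside the interval of its counterpart on V. Where a peak of one replicate met exactly 1 peak of another, the positions were close. The median distance between midpoints was 79.5 bp for replicates 1 and 2 (241 pairs), 80.25 bp for 1 and 3 (188 pairs) and 72.5 bp for 2 and 3 (153 pairs). Spearman's rho over these pairs was 0.43, 0.44 and 0.45 for significance and 0.51, 0.61 and 0.58 for width, as a description of peaks that share their libraries.

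The central part of V was more densely occupied than its arms in all 4 lists. With the centre taken as the middle 50% of the span of 20.9 Mb, from 5226370 to 15679110 (build WS220), it held 482 of 757 peaks in replicate 1, 258 of 398 in replicate 2 and 173 of 269 in replicate 3. These are 46.1, 24.7 and 16.6 peaks per Mb, against 26.3, 13.4 and 9.18 in the arms. The ratio of centre to arms was 1.75, 1.84 and 1.80, or 1.80 ± 0.045 (SD, n = 3; exact permutation test, two-sided, p = 0.25, the smallest possible). The series-level list gave 104 per Mb in the centre and 69.4 in the arms, a ratio of 1.51. Both arms were below the centre. The left arm held 26.2, 12.6 and 8.61 peaks per Mb in replicates 1, 2 and 3 and the right arm 26.4, 14.2 and 9.76.

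On the other 5 chromosomes together the ratio of centre to arms was 1.29, 1.33 and 1.44 in replicates 1, 2 and 3, below the value of V in each list. The ratio on V was 1.33 ± 0.070 times theirs (SD, n = 3; exact permutation test, two-sided, p = 0.25). V had the highest ratio of the 6 chromosomes in every list, but by little in replicate 3, where chromosome I reached 1.77.

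With each arm divided at its middle, the outer part held more peaks than the inner part. Replicate 1 had 30.2 peaks per Mb in the outer and 22.2 in the inner part of the left arm, and 35.6 and 17.2 in the right arm. Replicate 2 had 16.5 and 8.80 on the left and 19.1 and 9.18 on the right, and replicate 3 had 11.1 and 6.12 on the left and 13.4 and 6.12 on the right. The density along V therefore fell from the ends to the inner arms and rose again in the centre. In bins of 1 Mb counted from the left end, the lowest was bin 18, in the right arm, in all 4 lists, with 46 series-level peaks and 17, 7 and 4 in replicates 1, 2 and 3. Other arm bins were close. Bin 4, in the left arm, had 47 series-level peaks and 9 and 5 in replicates 2 and 3, and bins 3 and 17 had 18 in replicate 1. Among series-level peaks overlapped by at least 2 replicates, bin 4 was the lowest, with 5 peaks against 7 in bin 18. The highest was bin 11 in the series-level list (163 peaks) and in replicate 1 (76), and bin 14 in replicates 2 and 3 (38 and 25). Bin 7 stood out between lower neighbours, with 114 series-level peaks against 78 in bin 6 and 70 in bin 8, and with 54, 33 and 20 peaks in replicates 1, 2 and 3.

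**Figure D1:**
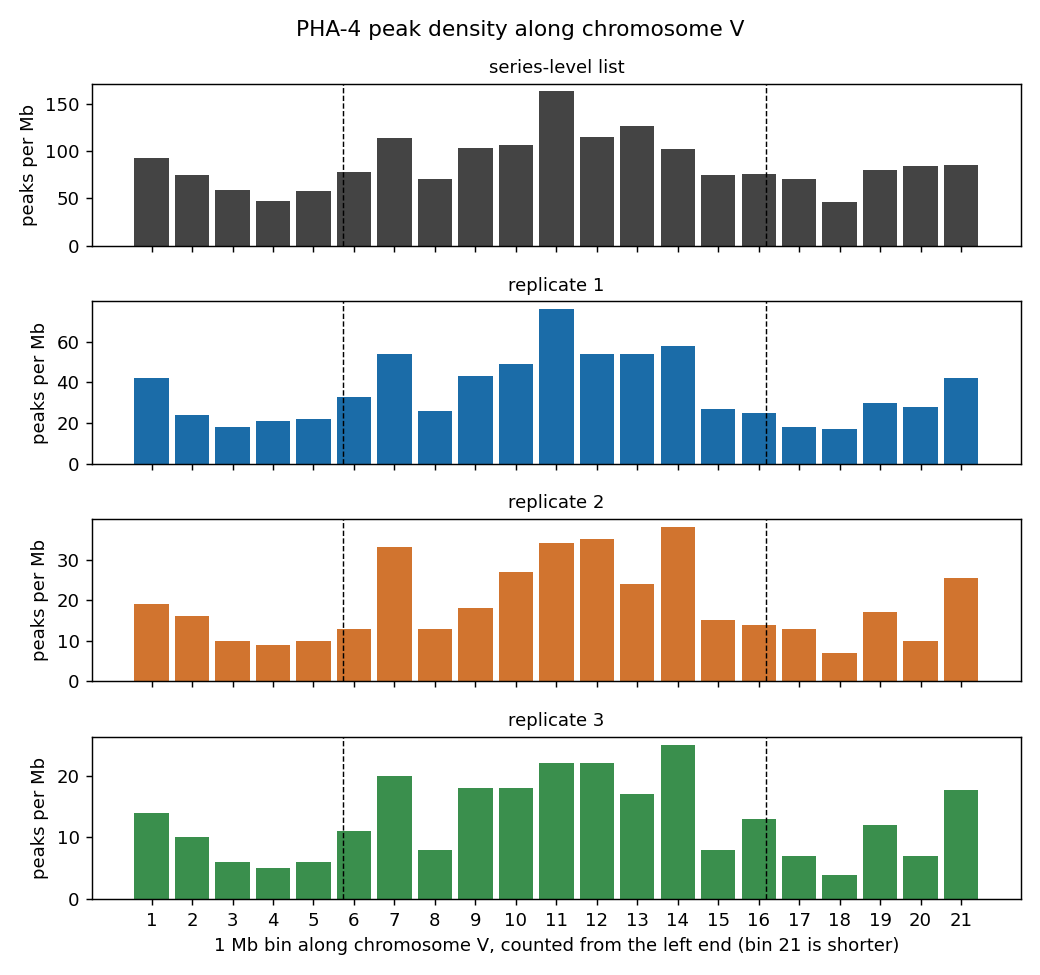
Peaks per Mb in 1 Mb bins along chromosome V (x axis, bins counted from the left end) in the series-level list and in each replicate list (y axis, each panel with its own scale from 0); dashed lines mark the middle 50% of the span. All 4 lists are lowest in bin 18, and the highest bin is 11 or 14.

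A stretch of 37.9 kb near the right end of V, described in full further on, lies in the right arm. It holds only 5 of the 1817 series-level peaks, and 4, 2 and 5 peaks of replicates 1, 2 and 3. Leaving it out moved the ratio of centre to arms little, to 1.77, 1.86 and 1.89 in replicates 1, 2 and 3. The outer part of the right arm then held 34.6, 18.6 and 11.6 peaks per Mb, against 35.6, 19.1 and 13.4 with it. The stretch weighed far more on bases covered. Peaks covered 2.46, 1.52 and 1.08% of the centre in the 3 replicates and 1.41, 0.910 and 0.660% of the arms, a ratio of 1.68 ± 0.056 (SD, n = 3). Without the stretch the arms fell to 1.14, 0.674 and 0.452% and the ratio rose to 2.27 ± 0.11. The right arm alone went from 1.59 to 1.04% in replicate 1, from 1.05 to 0.583% in replicate 2 and from 0.798 to 0.382% in replicate 3. The right arm was below the centre with and without the stretch, but its level depended on it.

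Strong peaks were more central than weak ones. Ranked by significance on V and divided into 10 equal parts, the strongest part had 129 of 181 peaks in the centre (71.3%, 95% interval 64.1 to 77.7%), and the next had 63.2%. The last 3 parts had 52.2, 52.7 and 56.6%, with intervals that reach below 50%. Of the 100 best peaks 73 were central, 16 lay in the left arm and 11 in the right. Over all V peaks the central share was 60.1%. Central peaks were also overlapped by replicates more often. At least 1 replicate overlapped 49.4% of central peaks (95% interval 46.4 to 52.4%) and 40.4% of arm peaks (36.8 to 44.1%). Replicate 1 overlapped 41.3% of central and 33.1% of arm peaks, replicate 2 overlapped 22.2 and 18.1%, and replicate 3 overlapped 14.9 and 11.7%. The difference was 5.16 ± 2.66 percentage points (SD, n = 3; exact permutation test, two-sided, p = 0.25). Significance moves with this difference: in the better-ranked 50% the shares overlapped by at least 1 replicate were 82.7% in the centre and 74.0% in the arms, and in the remaining 50% they were 12.5 and 11.5%. The part of significance in the difference was not tested.

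Support fell steeply along the ranking on V. The series-level list is of the same ChIP series as the replicate lists. Overlap between them, here and in the other paragraphs, is therefore a description and not independent support. In the strongest of the 10 parts, at least 2 replicates overlapped 176 of 181 peaks and all 3 overlapped 120. In the second part these counts were 115 and 25 of 182, and in the third 36 and 0. From the fifth part on, no more than 1 peak per part was overlapped by 2 replicates. The fall was much the same elsewhere. With the whole series-level list ranked and divided likewise, at least 2 replicates overlapped 97.8, 65.9, 22.5 and 4.46% of the V peaks in the first 4 parts, and 94.8, 61.4, 21.6 and 4.05% of those on the other chromosomes. The 145 V peaks shared by all 3 replicates all lay in the first 2 parts of the ranking. The authors' significance values in the first part ran from 0 to 2.99e-15.

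**Figure D2:**
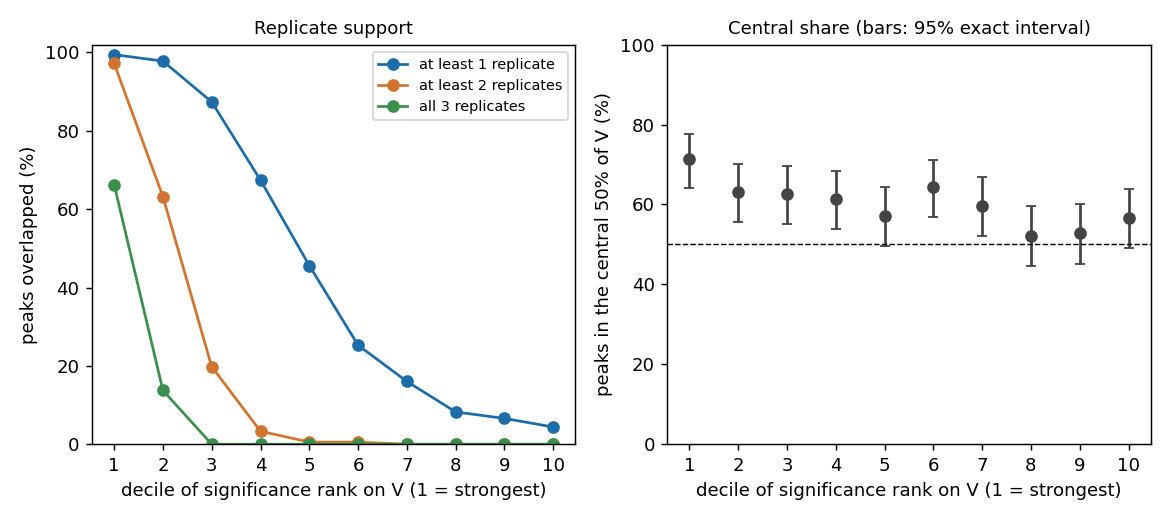
Left, the share of chromosome V peaks of the series-level list overlapped by at least 1, at least 2 and all 3 replicates (y axis, %) in each of 10 equal parts of the significance ranking (x axis, 1 is the strongest); right, the share lying in the middle 50% of V with 95% exact intervals, the dashed line marking 50%. Support by at least 2 replicates falls from 97.2% to 0%, and the central share is highest in the strongest part, at 71.3%. Over all V peaks it is 60.1%.

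The median V peak of the series-level list was 366 bp wide. Its quartiles were 224 and 572 bp, and single peaks ran from 2 to 34296 bp. Most peaks were therefore narrow, and a small tail was far broader. In replicates 1, 2 and 3 the widest V peak measured 12909, 19846 and 12789 bp, each inside the 37.9 kb stretch. Without the stretch the widest was the region from 723595 to 731741 in the series-level list, at 8147 bp. In the replicates it was then 4951 bp (6220735 to 6225685, replicate 1), 5308 bp (723715 to 729022, replicate 2) and 4103 bp (6222398 to 6226500, replicate 3). The median stayed at 366 bp in the series-level list and at 402 bp in replicate 1, and was 449.5 and 493.5 bp in replicates 2 and 3.

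Central peaks were wider than arm peaks in every list. Their median width was 423, 502.5 and 529 bp in replicates 1, 2 and 3, against 367, 380.5 and 449 bp in the arms, a ratio of 1.22 ± 0.091 (SD, n = 3; exact permutation test, two-sided, p = 0.25). The series-level medians were 386 bp in the centre, 354.5 bp in the left arm and 325 bp in the right arm. The quartiles of all zones overlapped widely. Of the 92 series-level peaks of at least 1200 bp, 68 were central (73.9%, beside 60.1% of all V peaks), 12 lay in the left arm and 12 in the right arm. Peaks of at least 1200 bp made up 4.98, 7.36 and 6.36% of central peaks in replicates 1, 2 and 3. Their share of arm peaks was 4, 5.71 and 8.33%. Replicates 1 and 2 thus went the same way as the series-level list, and replicate 3 the other way. Without the 37.9 kb stretch the shares of both arms together were 2.95, 4.35 and 4.40%, below the centre in each replicate. The arms differed in this. The left arm, which does not hold the stretch, had 5.11, 7.58 and 6.67%, slightly above the centre in each replicate. The right arm without the stretch had 0.746, 1.39 and 2.17%.

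**Figure D3:**
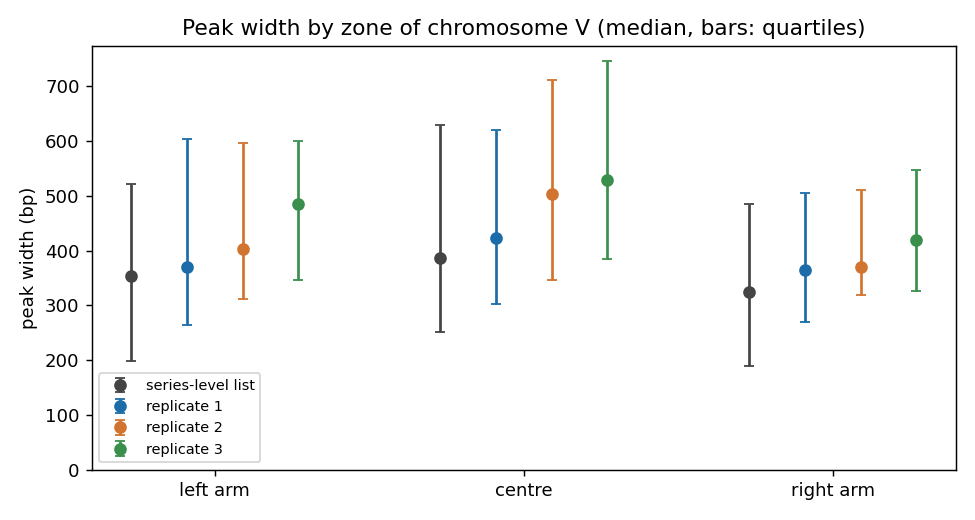
Median peak width in bp (points; bars are the lower and upper quartiles over peaks) in the left arm, the centre and the right arm of chromosome V, for the series-level list and each replicate list. In each list the centre has the highest median, from 386 bp in the series-level list to 529 bp in replicate 3.

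Width and replicate support went together on V. None of the 54 peaks under 20 bp and none of the 337 peaks from 20 to 199 bp was overlapped by 2 replicates. The share was 10.3% among 845 peaks of 200 to 499 bp, 35.2% among 489 peaks of 500 to 1199 bp and 82.6% among the 92 of at least 1200 bp (95% interval 73.3 to 89.7%). A wide peak can meet another list more easily by its width alone, and the part of width in this rise was not tested. Peaks overlapped by 0, 1, 2 and 3 replicates had median widths of 268, 417, 642.5 and 868 bp. The peaks under 20 bp were also the least central, at 33.3% against 73.9% of those of at least 1200 bp.

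The 15 strongest sites on V were all overlapped by peaks of all 3 replicates. Of these 15, 10 were central, beside 60.1% of all V peaks, 2 lay in the left arm and 3 in the right. At least 1200 bp wide were 14 of them. Genes at these positions were not assigned. The first site, the 34296 bp peak that ends at 20774629, had the best V peak of each replicate list. The second, from 723595 to 731741 in the left arm, spanned 8147 bp, and its best peak ranked 6, 3 and 3 on V in replicates 1, 2 and 3. Replicate 1 resolved it into 5 peaks of 525 to 2192 bp, replicate 2 into 3 and replicate 3 into 4. The replicate lists thus broke this region at different points, while the series-level list held it as 1 peak.

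Sites 3 and 4 in this ranking, from 6220678 to 6225760 and from 6225962 to 6231131 in the centre, are 201 bp apart. Replicate 1 had a peak of 4951 bp on the first (rank 2 on V) and one of 3409 bp on the second (rank 4). Replicate 2 had peaks of 4887 and 3907 bp with the same ranks, 2 and 4. Replicate 3 placed its main break elsewhere: its peak of rank 2, from 6222398 to 6226500, ran across the gap between the sites, and a peak of 3401 bp with rank 5 covered most of the second. The pair was thus near the top of V in every replicate, while the border between the sites was set differently in replicate 3.

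Further down, the ranks spread more. The sixth site, from 9073559 to 9076342 (2784 bp), had ranks of 5, 7 and 6 in replicates 1, 2 and 3, and the eleventh, from 9342969 to 9345026 (2058 bp), had 17, 10 and 14. The eighth, from 9253266 to 9255970, was a single peak of 2657 bp with rank 7 in replicate 1. In replicates 2 and 3 it was covered by 3 and 2 shorter peaks, the best with ranks 59 and 93. The fourteenth, from 11885087 to 11886418, had ranks of 10 and 9 in replicates 1 and 2 but 224 of 269 in replicate 3. Of the 15 sites, 8 ranked among the best 20 peaks of V in all 3 replicates, and 11 among the best 50.

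A pair of right-arm sites had narrow replicate peaks. The fifteenth site, from 18967269 to 18967994, was 726 bp wide and had peaks of 473, 358 and 344 bp in replicates 1, 2 and 3. These ranked 12, 6 and 9 on V. The tenth, from 20272075 to 20273474, had best peaks of 414, 429 and 453 bp with ranks 74, 14 and 39. Breadth was thus common but not general among the strongest sites.

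**Figure D4:**
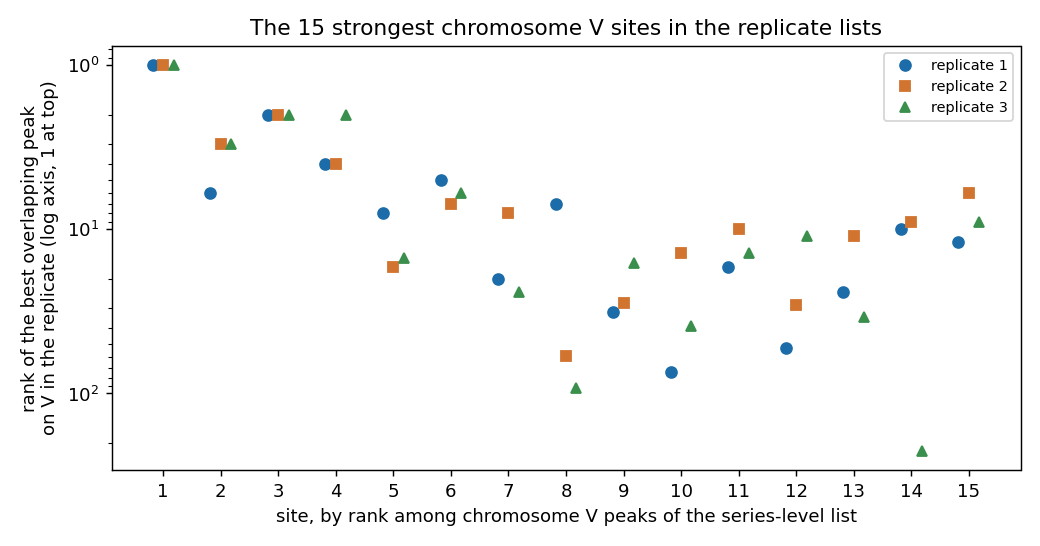
Rank on chromosome V of the best overlapping peak in each replicate list (y axis, log scale with rank 1 at the top) for the 15 strongest V sites of the series-level list (x axis). Sites 1 and 3 have the same rank in all 3 replicates, and the lowest point is rank 224, for site 14 in replicate 3.

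The strongest region of V, the stretch near the right end, was 37.9 kb long and ended 127 kb before the last peak end of the chromosome. In the series-level list it consisted of the 34296 bp peak and, to its right, 4 small peaks of 199 to 1090 bp. Replicate 1 had 4 peaks in it, replicate 2 had 2 and replicate 3 had 5. All 3 replicates covered a first block from 20740636 to 20753339 (12704 bp) and a block from 20771621 to 20774548 (2928 bp) near the right end of the widest peak. Between 20753813 and 20759050 they shared 3 further blocks of 2902, 989 and 676 bp. The replicates thus had nearly the same beginning and end for this domain, with start points from 20740431 to 20740636 and end points of the widest part from 20774548 to 20774639.

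The middle of the domain was called differently. No replicate had a peak from 20760477 to 20763725 (3249 bp), which the series-level peak spans. Replicate 1 then had a peak of 10823 bp from 20763726, whereas the last large peak began at 20769523 in replicate 2 and at 20771621 in replicate 3. In all, 53.3% of the stretch was covered in all 3 replicates and 17.8% in none. The 4 small peaks at the right had ranks from 378 to 1311 on V, and only the one from 20776442 to 20776640 was met by a replicate, replicate 1. The stretch held 7.21, 9.81 and 12.0% of all bases covered by V peaks in replicates 1, 2 and 3. Strain OP37 carries extra pha-4 sequence in its transgene. Whether those copies map to this stretch was not tested, and neither a WS220 gene position nor input values were used here.

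**Figure D5:**
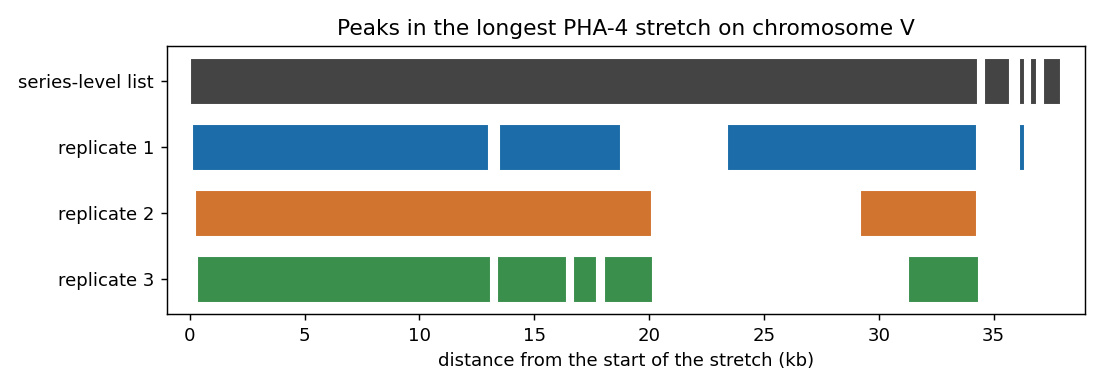
Extent of each peak (bars) in the 37.9 kb stretch near the right end of V, plotted as distance in kb from its start, in the series-level list and the 3 replicate lists. The left block of about 12.7 kb and the right block of about 2.93 kb are covered in all 3 replicates, with shorter shared blocks between them. The parts between these blocks without a peak differ among the replicates.

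Peaks on V were often neighbours. With peaks of a list joined where at most 2 kb lay between them, 1023 of the 1817 series-level peaks (56.3%) fell into 360 runs of 2 or more, and 794 stood alone. On the other chromosomes the share in runs was higher, from 60.5% on X to 65.8% on III. In replicates 1, 2 and 3 the share in runs was 36.9, 36.7 and 30.9%. The median gap between neighbouring peaks of the series-level list was 3.19 kb in the centre, 6.46 kb in the left arm and 4.99 kb in the right arm.

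Runs of at least 10 kb numbered 9 on V, of which 7 were central, 2 lay in the right arm and 0 in the left. The number is set by the joining distance, with 3 such runs at gaps of at most 1 kb and 66 at gaps of at most 5 kb. Per Mb such runs were rarer on V than on any other chromosome, at 0.431 against 0.524 (II) to 1.09 (III), but V also had the fewest peaks per Mb. Relative to the number of peaks V was not the lowest. It had 9 such runs among 1817 peaks, beside 8 among 1884 on II and 10 among 2186 on I, while III, IV and X had more runs for their peaks. Every one of the 9 held peaks of all 3 replicates. After the stretch already described, the longest was a run of 14.2 kb in the right arm, from 19519653 to 19533850. It was made of 11 small peaks, the widest of 804 bp and the best of rank 124, and replicates 1, 2 and 3 covered 15.97, 4.49 and 7.14% of it. The run from 6220678 to 6233989 (13.3 kb) was of the opposite kind, with sites 3 and 4 as its body and 69.8, 66.1 and 66.1% covered in the replicates. Length alone therefore did not separate a few broad peaks from many weak ones.

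The run from 11529329 to 11541947 (12.6 kb) held 4 peaks, all overlapped by at least 2 replicates, among them the fifth strongest site (5333 bp). Replicates 1, 2 and 3 covered 57.7, 50.1 and 36.8% of it. Those from 5838478 to 5849606 (11.1 kb, 6 peaks) and from 13649864 to 13660962 (11.1 kb, 5 peaks) were covered for 48.9, 38.1 and 38.1% and for 50.1, 44.0 and 24.9%. Coverage was thinner in 2 further central runs. That from 15654071 to 15667142 (13.1 kb), just inside the central zone, was covered for 10.7, 9.29 and 7.71%, and that from 10039864 to 10050078 (10.2 kb) for 7.22, 12.4 and 3.93%. In these 2 runs, 5 of 8 peaks each met no replicate.

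The run from 10466250 to 10478383 (12.1 kb) contains the best-ranked V peak without any replicate support. Peaks of replicates 1, 2 and 3 made up 29.4, 26.9 and 46.1% of this run. The unsupported peak lies from 10470626 to 10473025, is 2400 bp wide and ranked 111 on V. On its left, the peaks from 10466250 to 10467379 and from 10469096 to 10470361 were overlapped by all 3 replicates. On its right, the same holds for the peaks from 10473827 to 10475104 and from 10476170 to 10477888. All 3 replicates therefore had peaks on both sides and a gap over the same peak. The next unsupported peaks in rank lay in the right arm, from 19206534 to 19207703 (rank 256) and from 17661503 to 17662603 (rank 308).

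Long intervals without peaks lay in the arms. The longest without a series-level peak ran from 2327656 to 2588818 (261 kb) in the left arm, followed by 17353258 to 17538516 (185 kb) and 17068025 to 17238767 (171 kb) in the right arm. No replicate had a peak centred in any of them. The longest gaps of the replicate lists were 341 kb (16726419 to 17067518, replicate 1), 626 kb (2765422 to 3391045, replicate 2) and 634 kb (2672977 to 3307335, replicate 3). The last of these overlaps that of replicate 2 for most of its length, but replicate 1 had 5 peaks centred in it.

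Few replicate peaks on V were missing from the series-level list: 37 of 757 in replicate 1, 8 of 398 in replicate 2 and 3 of 269 in replicate 3. None of these was shared between replicates. The best of them were the peaks from 20132284 to 20132378 (rank 352 on V in replicate 1), from 3649024 to 3649339 (rank 312 in replicate 2) and from 18871717 to 18872241 (rank 181 in replicate 3). In the replicate lists, strong peaks were shared far more than weak ones. The best 50 V peaks of each replicate were all found in another replicate, and 45, 46 and 44 of them in both others for replicates 1, 2 and 3. Of the worst 50, another replicate held 8, 24 and 38. Matching shares for the other chromosomes are not given here, so the counts of missing and shared peaks cannot be read as particular to V.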

How the data were processed

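The values used were the authors' deposited PeakSeq peak lists on WormBase WS220 coordinates, per the file headers, 1 for each of the 3 ChIP replicates and 1 for the series. The deposited value of each peak lies between 0 and 0.00099, the range of a p-value, but the sources used here leave unsaid if q-values are meant, and give no aligner, version, filter or way of combining replicates. Depth is unknown. From these lists, overlaps of at least 1 bp, densities, runs (gaps of at most 2 kb) and exact sign-flip permutation tests over the 3 lists were computed in Python 3.11.15 (numpy 2.4.6, pandas 2.3.3, scipy 1.17.1), with functions tested on simulated data. Chromosomes were taken to end at the last peak of any list, and peaks were assigned to zones by midpoint. Named regions are the 15 best V peaks, runs of at least 10 kb, the 3 longest gaps, the widest peaks and the best unsupported peaks; other regions (bins, parts of arms, peaks beside an unsupported one, the 2 next unsupported peaks, the longest gap of each replicate) were chosen after their values were seen. The peaks, lists and tests were chosen with earlier results of these data known. Alternatives were a reciprocal overlap, stricter ranks, other zones and joining distances, peaks without the longest stretch and each replicate left out. No genome or annotation of WS220 was used here, so no sequence or gene is given.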

Additional observations from a re-analysis of the deposited data

How the results depend on the processing

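The ratio of V to the other chromosomes stayed below 1 under its 7 alternatives (0.605 to 0.752), and the ratio of centre to arms in the replicate lists stayed above 1 under its 9 (1.68 to 1.96). Neither can pass a test with 3 lists. With 1 replicate left out these ratios ranged from 0.627 to 0.629 and from 1.78 to 1.82. In the series-level list the ratio of centre to arms rose from 1.51 to 1.71 in the better-ranked 50% of V peaks and to 1.73 by bases covered. A reciprocal overlap of 50% gave support by at least 1, at least 2 and all 3 replicates for 40.3, 12.6 and 4.46% of V peaks, and the better-ranked 50% gave 79.5, 36.8 and 15.97%, beside 45.8, 18.4 and 7.98%. Without peaks under 200 bp, an alternative added after seeing the data as were the centre against single arms and the omission of chromosome I, support by at least 2 replicates was 23.5%. With 1 replicate left out, support by at least 1 ranged from 25.2% (without replicate 1) to 44.0%, and support by both remaining replicates from 8.97% (without replicate 1) to 14.6%, with 10.8% without replicate 2. By construction, with fewer lists the shares for at least 1 and at least 2 can only fall and the share for all lists can only rise. The median width rose to 514 bp in the better-ranked 50%. Runs of at least 10 kb numbered 3 with gaps of at most 1 kb and 66 with gaps of at most 5 kb, so their number is set by the joining distance. The causes of the other changes were not tested. Leaving out the 37.9 kb stretch near the right end kept the main values of these results within their intervals, directions or 1.5 times. By bases covered, the ratio of centre to arms rose without it from 1.73 to 1.94 in the series-level list. In the replicate lists this ratio rose from a mean of 1.68 to 2.27. No paired analysis was possible because only the ChIP samples, a single group, have values used here, and the inputs that share their numbers have none.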
